A study of Mus musculus with 11 samples.

Results

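The interferon response genes described here are a list of 59 mouse genes that interferon induces or that carry its signal, with the Schlafen family added. The members were chosen by name, and a member's level was read from its probe set, the group of array probes that stands for 1 transcript. In the deposited values 52 of the 59 members had a probe set, 1 each, among 14351 genes with a name. For 5 of them, Usp18, Gbp2, Ifi209, Cxcl10 and Slfn9, the same values stood under another transcript name too. Whether their probes are specific to 1 transcript was not tested. Genes were tested if their log2 value reached 5 or more on 2 or more arrays, which 40 members and 8085 genes in all did.

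The study compared lungs of Balb/c mice with the genotype 4ebp1-/-/4ebp2-/-, in which both Eif4ebp1 and Eif4ebp2 are knocked out, with lungs of wild-type (WT) Balb/c mice. The 2 genes encode 4E-BP1 and 4E-BP2, repressors that occupy eIF4E, the factor that recognises the mRNA cap, and so keep translation from starting. Total RNA was measured on 3 wild-type and 3 knockout arrays, and polysomal RNA on 2 wild-type and 3 knockout arrays, all 1-colour Affymetrix arrays. Polysomal RNA was pooled from fractions 7 to 10 of a gradient of 10, which held transcripts with 3 or more ribosomes. Both genotypes were put on the same purified diet at 5 weeks of age, and no infection or interferon treatment is named in the labels. The age at which the lungs were taken is not given. The knockouts were provided by another laboratory and the wild-type mice from a commercial supplier, so genotype and colony cannot be told apart. The labels name no cell type to which the knockout is restricted, and whole lung was used. Whether every array represents a separate mouse is not stated in the labels, and the p-values therefore measure only the spread between arrays, part of which may be technical.

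Type I interferon binds a receptor made of Ifnar1 and Ifnar2, and kinases of the JAK family then phosphorylate factors that include Stat2. Together with Irf9, Stat2 acts at the interferon-stimulated response element (ISRE) in front of the target genes. A second element of interferon-induced genes is the gamma-activated site (GAS). Many of the induced proteins act on viral or foreign RNA, block virus entry, conjugate the ubiquitin-like protein Isg15, or present peptides to T cells. Translation is known to bear on this response: in mouse fibroblasts, 4E-BPs hold back the translation of Irf7, the master factor of interferon production.

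Promoters of 6 members are shown because the ISRE was more frequent in the members' promoter windows than in all windows, though under 50% of the member windows held it. In RefSeq windows of GRCm38.p6 running from 250 bases before to 50 bases after a transcript start, 50 of the 59 members had a window, and Usp18, Dhx58, Rtp4, Zbp1, Oas2, Mx1, Iigp1, Tap2 and Mx2 had none. GAAA followed after any 2 bases by a second GAAA, or TTTC and TTTC likewise on the other strand, was used for the ISRE, and overlapping matches were counted. It occurred in 24 of 58 member windows (41.4%) and in 3.44% of all 32851 windows. The motif TTCNNNGAA, which reads the same on both strands, was used for the GAS, and it occurred in 14 member windows (24.1%) and in 8.3% of all windows. The 150 bases before the start are printed below for 4 members with an ISRE match there and for Ifi209 and Slfn4, which had none and rose on knockout polysomes. Capitals mark the ISRE matches.
Isg15 (chr4:156200819-156200968, minus strand): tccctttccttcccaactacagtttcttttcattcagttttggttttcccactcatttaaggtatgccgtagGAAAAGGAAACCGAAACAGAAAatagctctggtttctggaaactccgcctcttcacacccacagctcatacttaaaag
Gbp3 (chr3:142559894-142560043, plus strand): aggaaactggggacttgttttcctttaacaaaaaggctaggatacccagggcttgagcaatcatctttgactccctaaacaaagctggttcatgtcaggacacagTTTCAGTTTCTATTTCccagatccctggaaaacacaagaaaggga
Bst2 (chr8:71537473-71537622, minus strand): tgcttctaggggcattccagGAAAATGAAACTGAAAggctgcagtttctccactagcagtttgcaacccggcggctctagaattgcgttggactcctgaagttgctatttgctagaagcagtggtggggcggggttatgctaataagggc
Igtp (chr11:58199406-58199555, plus strand): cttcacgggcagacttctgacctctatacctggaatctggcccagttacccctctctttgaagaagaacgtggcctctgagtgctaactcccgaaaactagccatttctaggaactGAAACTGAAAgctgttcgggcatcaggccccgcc
Ifi209 (chr1:173630709-173630858, plus strand): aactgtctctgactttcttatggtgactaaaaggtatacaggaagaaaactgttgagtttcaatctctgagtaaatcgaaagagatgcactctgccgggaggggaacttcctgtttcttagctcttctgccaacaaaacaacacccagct
Slfn4 (chr11:83175036-83175185, plus strand): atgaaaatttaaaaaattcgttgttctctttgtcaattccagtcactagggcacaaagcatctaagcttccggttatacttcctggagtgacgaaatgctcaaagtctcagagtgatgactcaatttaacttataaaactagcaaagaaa
Isg15 carried 3 overlapping matches, Gbp3 and Bst2 2 each, and Igtp 1. A match is only a match of letters, and its absence says only that these letters are not in this window.

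The arrays were checked before the members were read. In knockout total RNA Eif4ebp2 fell by 1.90 on the log2 scale (limma adjusted p = 0.0016), and on knockout polysomes it fell by 2.07 (limma adjusted p = 0.0025), with no overlap between the genotypes. Eif4ebp1 fell by 0.40 in total RNA and by 0.67 in polysomal RNA. Whether the probes of either gene lie in the deleted part is not known. The summed level of the alveolar type 2 markers, surfactant genes among them, was high on all arrays, between log2 16.29 and 17.92. In total RNA it was 16.29 to 17.01 in wild type and 17.24 to 17.28 in knockout. Values of probe sets that were not tested had array medians between 2.30 and 2.49, which is taken here as the floor, and a member with a group mean under 4 is called near the floor. A pair of arrays stood apart for the members. Wild-type polysomal replicate 2 was lower than replicate 1 for 34 of the 40 tested members (85%, median difference -0.30), against 49.9% of all genes (median 0.0). Wild-type total replicate 3 was the highest of its group for 23 of the 40 (57.5%), against 35.3% of all genes, and its summed level of neutrophil markers was 14.83, against 12.85 and 12.52 on the other wild-type total arrays. That level was carried by S100a8 (10.98 to 14.37 in wild-type total RNA) and S100a9 (9.68 to 12.40), while Lcn2 (10.59 to 10.84) and Ltf (9.78 to 10.20) varied little there and were higher in knockout total RNA, at 11.90 to 12.29 and 11.30 to 11.79. The part of either array in the results was not tested beyond leaving it out. In whole lung, fewer cells of a type and less RNA per cell cannot be told apart.

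A set of members gave no usable measure. Ddx58, Ifit1, Ifit3, Mx1, Mx2, Oas1a and Oas1g had no probe set, and 12 more had one that did not pass the filter, with values between 1.54 and 4.71. These were the RNA helicase Dhx58 and the nucleic acid sensor Zbp1, the factors Irf7 and Stat2, the antiviral kinase Eif2ak2 (PKR), the RNA sensors Oas3 and Oasl1, the T cell chemokine Cxcl9, and Slfn1, Slfn3, Slfn5 and Slfn9. Irf7 read 3.27, 3.18 and 3.43 in wild-type total RNA, 3.27 on all 3 knockout total arrays, 3.25 and 3.23 on wild-type polysomes, and 3.50, 3.27 and 3.25 on knockout polysomes. Stat2 read 2.59, 2.57 and 2.57 in wild-type total RNA, 2.50, 2.54 and 2.55 in knockout total RNA, 2.69 and 2.53 on wild-type polysomes, and 2.83, 2.54 and 2.53 on knockout polysomes. Both stayed near the floor on all 11 arrays, and 9 of the 12 untested members moved by less than 0.5 across the arrays. Whether such flat values come from little RNA or from probes that do not respond was not tested. Of 14 interferon genes on a companion list, 7 had a probe set, all between 1.86 and 2.78, and none passed the filter. Tested members near the floor in at least 1 group were Bst2, in both total groups, and Slfn4, on wild-type polysomes. By the filter, Tap1 and Bst2 passed through the polysomal arrays alone and Cxcl10 through the total arrays alone, so the tested members are not all members.

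In total RNA, 6 tested members rose in knockout lung, 1 fell and 33 did not pass the test. The risers were the myeloid factor Irf8, the activator Irf1, the virus entry blockers Ifitm3 and Ifitm1, the Nmi partner Ifi35 and the Schlafen Slfn2, which keeps T cells and monocytes quiescent. Irf2, best known as a repressor that competes with Irf1, fell. Of all 8085 genes tested, 17.2% rose and 5.97% fell, 23.2% in either direction, so 15% and 2.5% of the members were near or under the background. The genotypes did not overlap for any of the 7, which was largely fixed in advance because the 7 were picked by the test. Of all genes, whether they passed or not, 28% did not overlap with knockout higher and 14% with knockout lower. The 2 are not like shares. The median difference over the members was 0.07, against 0.09 over all genes.

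Irf8 read 9.78, 9.60 and 9.89 in wild-type total RNA and 10.56, 10.91 and 10.47 in knockout total RNA. Every knockout array lay above every wild-type array. The difference was 0.89 on the log2 scale (SE 0.15, 1.85-fold, limma adjusted p = 0.0040). Ifitm3 was similar, at 12.97, 12.99 and 12.46 in wild type and 13.59, 13.82 and 13.70 in knockout, again without overlap. It rose by 0.89 (SE 0.15, 1.86-fold, limma adjusted p = 0.0036). Irf2 read 8.79, 8.73 and 9.09 in wild type and 8.13, 8.25 and 7.98 in knockout. All knockout arrays lay below all wild-type arrays, and the gene fell by 0.75 (SE 0.15, 1.69-fold, limma adjusted p = 0.0071). These 3 calls were kept without any 1 of the 11 arrays.

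Slfn2 read 4.56, 4.42 and 5.18 in wild-type total RNA and 5.33, 6.09 and 5.66 in knockout. It was low in both genotypes, with no overlap between them, and rose by 0.97 (SE 0.25, limma adjusted p = 0.022). Irf1 read 10.64, 10.66 and 10.59 in wild type and 10.86, 11.29 and 11.10 in knockout, a rise of 0.45 (SE 0.11, limma adjusted p = 0.016). Ifitm1 read 11.82, 12.03 and 11.94 in wild type and 12.21, 12.34 and 12.33 in knockout, a rise of 0.36 (SE 0.10, limma adjusted p = 0.026). In both, the knockout arrays lay above the wild-type arrays. Ifi35 read 12.72, 12.79 and 12.80 in wild type and 12.95, 13.20 and 13.06 in knockout, a rise of 0.30 (SE 0.09, limma adjusted p = 0.035). These 4 calls were less firm, and 3 members in all rose with the total arrays fitted alone. Irf1 was lost without knockout total replicate 2 (limma adjusted p = 0.057), and Ifitm1 without that array, knockout total replicate 3 or wild-type total replicate 1 (up to 0.097). Slfn2 was lost without any 1 of those 3 arrays or wild-type total replicate 2 (up to 0.087). Ifi35 was lost without any 1 of those 4 or knockout polysomal replicate 2 (up to 0.13). Arrays carry an unexplained replicate set letter, A, B or C. All 7 changes had the same direction in sets A and B taken alone, which was fixed in advance because the genotypes did not overlap. Without wild-type total replicate 3, the array highest in S100a8, 6 members rose and 1 fell. Without wild-type total replicate 2, 4 rose and 4 fell, Gbp3, Slfn4 and Slfn8 joining Irf2.

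**Figure D1:**
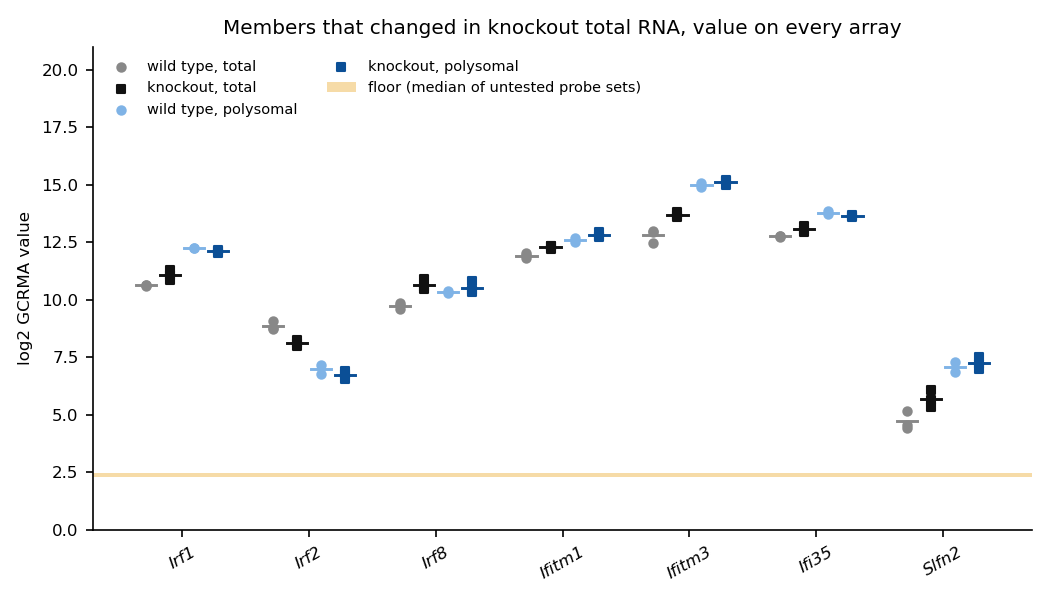
Log2 value on every array for the 7 members that passed the test between genotypes in total RNA. Circles are wild type and squares knockout, grey and black total RNA, light and dark blue polysomal RNA, short bars are group means, and the yellow band is the floor between 2.30 and 2.49. The grey and black points do not overlap in any of the 7, while in polysomal RNA the genotypes lie close together.

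On polysomes, 7 tested members rose in knockout lung and none fell. They were the RNA sensor Ifih1 (MDA5), the RNA-binding effector Ifit2, the exonuclease Isg20, the immunity-related GTPase Iigp1, Ifi44, whose action is poorly known, the PYHIN family gene Ifi209 and the myeloid Schlafen Slfn4. None of these passed the test in total RNA. Of all genes tested, 8.36% rose and 6.77% fell on polysomes, 15.1% in either direction, and 17.5% of the members rose. At an unadjusted p under 0.05 limma gave 9 of the 40 tested members higher and 2 lower. Of all 8085 genes it gave 1304 higher and 1200 lower, and no other tool was run. The genotypes did not overlap for any of the 7, which was largely fixed in advance because the 7 were picked by the test. Of all genes, whether they passed or not, 23.8% did not overlap with knockout higher and 25.2% with knockout lower. The 2 are not like shares. The median difference was 0.18, against -0.01 over all genes. This comparison rests on 2 wild-type arrays, and without replicate 2, the lower of them for most members, Ifit2 alone passed. With no filter, or with the polysomal arrays fitted alone, 2 members rose in each case, and with equal array medians 4.

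Ifit2, which binds RNA and limits its translation, read 8.42 and 8.13 on wild-type polysomes and 9.11, 9.28 and 9.17 on knockout polysomes. The knockout arrays lay well above both wild-type arrays. It rose by 0.91 (SE 0.15, 1.88-fold, limma adjusted p = 0.0042), and this call was kept without any 1 array, with adjusted p between 0.0024 and 0.036. In total RNA Ifit2 read 10.41, 10.23 and 9.99 in wild type and 9.88, 9.98 and 10.15 in knockout, and these groups overlapped, at a difference of -0.21 (SE 0.13, adjusted p = 0.29).

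Isg20 read 9.10 and 8.67 on wild-type polysomes and 9.68, 9.48 and 9.33 on knockout polysomes, a rise of 0.61 (SE 0.15, limma adjusted p = 0.024). Ifi209 read 6.20 and 5.18 on wild-type polysomes and 7.87, 7.25 and 6.66 on knockout polysomes, a rise of 1.57 (SE 0.41, 2.97-fold, limma adjusted p = 0.033). In both, every knockout array lay above every wild-type array, with the lowest value on wild-type polysomal replicate 2. Both calls were lost without that array, knockout polysomal replicate 1 or knockout polysomal replicate 2, with adjusted p up to 0.16 for Isg20 and 0.22 for Ifi209. Without wild-type polysomal replicate 2 the Ifi209 difference was 1.06. In total RNA Ifi209 ran the other way without passing, at 7.78, 7.45 and 7.71 in wild type and 6.44, 7.51 and 6.72 in knockout (difference -0.76, SE 0.37, adjusted p = 0.17). Isg20 in total RNA read 9.90, 10.10 and 9.93 in wild type and 10.20, 10.08 and 10.19 in knockout, and the genotypes overlapped.

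Ifih1, a sensor of long double-stranded RNA, read 11.18 and 10.77 on wild-type polysomes and 11.28, 11.65 and 11.56 on knockout polysomes, a rise of 0.53 (SE 0.15, limma adjusted p = 0.046). In total RNA it was flat, at 11.60, 11.44 and 11.55 in wild type and 11.26, 11.45 and 11.51 in knockout. Iigp1, which attacks the vacuoles of intracellular parasites, read 9.06 and 8.30 on wild-type polysomes and 9.59, 10.06 and 9.71 on knockout polysomes, a rise of 1.11 (SE 0.32, limma adjusted p = 0.046). Its genotypes overlapped in total RNA, at 10.77, 10.06 and 11.08 against 10.06, 10.39 and 10.68. Ifi44 read 7.00 and 6.13 on wild-type polysomes and 8.50, 8.21 and 7.77 on knockout polysomes, a rise of 1.59 (SE 0.47, 3.02-fold, limma adjusted p = 0.047). Its total RNA values of 7.85, 6.63 and 8.36 in wild type and 7.43, 8.09 and 7.70 in knockout overlapped. These 3 calls lie close to the threshold. The Ifih1 call was kept only without wild-type total replicate 3, wild-type polysomal replicate 1 or knockout polysomal replicate 1. The Iigp1 call was kept only without wild-type total replicate 2 or 3 or wild-type polysomal replicate 1, and the Ifi44 call only without wild-type total replicate 2 or 3. Their adjusted p otherwise reached 0.29, 0.29 and 0.27. Taken within replicate sets B and C alone, all 7 polysomal differences had the same direction. That too was fixed in advance, because the genotypes did not overlap on polysomes for any of the 7.

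**Figure D2:**
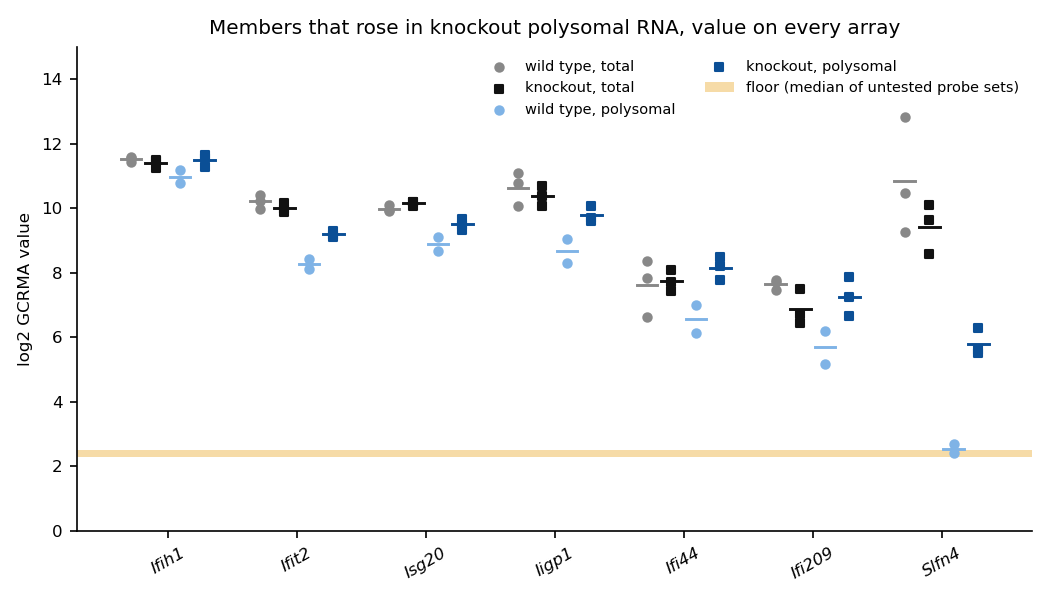
Log2 value on every array for the 7 members that rose in knockout polysomal RNA, with symbols for genotype and RNA kind, group means as short bars and the floor as a yellow band. The dark blue squares lie above the light blue circles in all 7, and for Slfn4 the wild-type polysomal values of 2.68 and 2.40 sit at the floor.

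Slfn4, a Schlafen of myeloid cells, showed the widest range of any member. In total RNA it read 10.46, 9.25 and 12.82 in wild type and 9.62, 8.59 and 10.09 in knockout, with overlapping groups (difference -1.41, SE 0.75, limma adjusted p = 0.20). On wild-type polysomes it read 2.68 and 2.40, at the floor, and on knockout polysomes 6.29, 5.61 and 5.51. Every knockout polysomal array was clearly above the floor and both wild-type ones were not. The rise was 3.26 (SE 0.84, limma adjusted p = 0.030), a size that depends on the floor. It was lost without any 1 of the 5 polysomal arrays, with adjusted p up to 0.14, while the difference stayed between 3.02 and 3.41. The neutrophil markers were measured beside it. The neutrophil gene S100a8 was between 10.98 and 14.37 in wild-type total RNA, 11.96 and 12.14 in knockout total RNA, 9.60 and 10.52 on wild-type polysomes, and 10.80 and 11.63 on knockout polysomes. Both S100a8 and Slfn4 were highest on wild-type total replicate 3. Of 4 neutrophil markers tested, 2 rose in total RNA, Lcn2 and Ltf (50%, against 17.2% of all genes). Lcn2 rose on polysomes (25%, against 8.36%). The summed level of the list was 14.04 to 14.21 on wild-type and 14.61 to 14.85 on knockout polysomes. Most of it there was Lcn2 (13.03 to 13.17 and 13.46 to 13.78) and Ltf (12.81 to 12.83 and 12.91 to 13.57). S100a8 did not pass between genotypes on polysomes (limma adjusted p = 0.37). The part of the neutrophil list in the Slfn4 difference was not tested. The polysomal level of S100a8 stayed far above the floor in wild type, which does not tell what level Slfn4 should have there.

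Slfn1, Slfn3, Slfn5 and Slfn9 did not pass the filter and had no value above 4.71 on any array. Slfn5 was near the floor in total RNA, between 3.04 and 3.39, and read 4.43 and 3.61 on wild-type and 4.12, 4.44 and 4.71 on knockout polysomes. Slfn8 read 6.98, 6.15 and 7.95 in wild-type and 6.07, 6.37 and 6.11 in knockout total RNA, then 5.10 and 4.06 on wild-type and 5.08, 5.09 and 4.37 on knockout polysomes. Its genotypes overlapped in both RNA kinds, and like Slfn4 it was highest on wild-type total replicate 3. Slfn2, by contrast in its values, read 7.30 and 6.85 on wild-type and 7.54, 7.00 and 7.20 on knockout polysomes, above its total RNA levels in both genotypes.

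**Figure D3:**
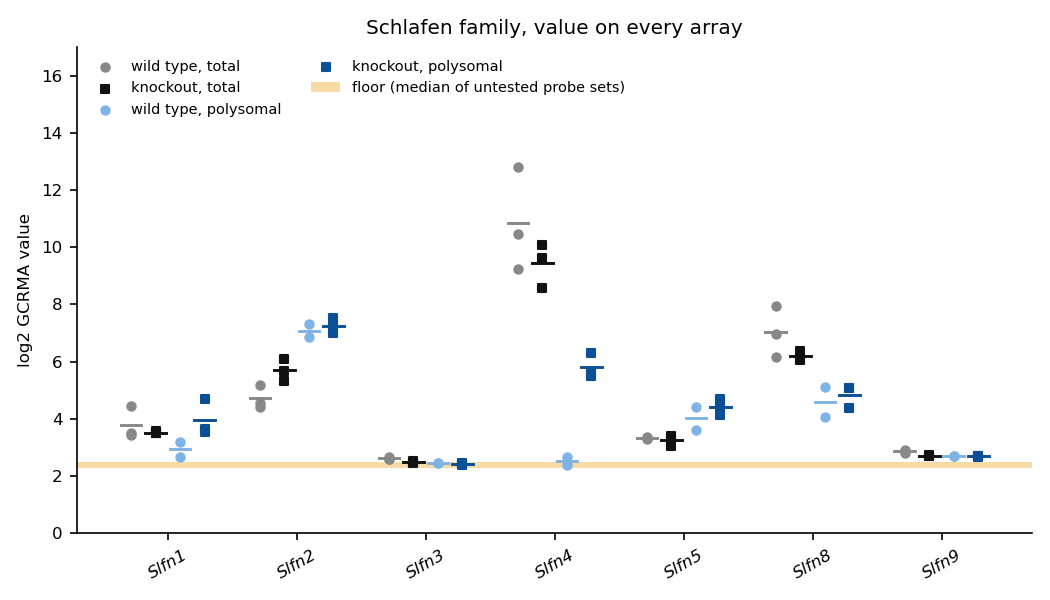
Log2 value on every array for the 7 Schlafen members, with symbols for genotype and RNA kind, group means as short bars and the floor as a yellow band. Slfn4 spans from 12.82 in wild-type total RNA to the floor on wild-type polysomes, and Slfn1, Slfn3, Slfn5 and Slfn9 stay at or under 4.71.

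Several well-known members did not pass either test between genotypes. Isg15 read 7.86, 7.59 and 8.16 in wild-type and 7.99, 8.11 and 8.15 in knockout total RNA, then 8.13 and 8.11 on wild-type and 8.75, 8.42 and 8.17 on knockout polysomes. The genotypes overlapped in total RNA and just separated on polysomes, at a difference of 0.33 (SE 0.19, limma adjusted p = 0.28). The receptor subunit Ifnar1 read 8.19, 8.11 and 8.45 in wild-type and 8.27, 8.29 and 8.28 in knockout total RNA, then 7.74 and 7.53 on wild-type and 7.14, 7.30 and 7.51 on knockout polysomes. Its differences were 0.03 (SE 0.12) and -0.31 (SE 0.14, limma adjusted p = 0.15). Rsad2 (viperin), an antiviral enzyme, read 4.66 and 4.47 on wild-type and 6.95, 5.52 and 5.83 on knockout polysomes. Its difference of 1.53 was wide in error (SE 0.60, limma adjusted p = 0.11). Among the other antiviral members the values of Cmpk2 stayed between 7.55 and 7.86 over all 11 arrays, and those of Oasl2 between 8.82 and 9.46.

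Whether the knockout difference itself differed between the RNA kinds was tested as the interaction, the polysomal difference minus the total RNA difference. It was higher for 6 members and lower for 5. Of all genes, 8.06% were higher and 14.2% lower (22.3% in either direction), with a median of -0.13 against 0.10 for the members. The 6 with a more positive difference on polysomes were Ifih1 (0.65), Ifit2 (1.11, SE 0.20, limma adjusted p = 0.0067), Gbp3 (1.71), Iigp1 (1.37), Ifi209 (2.33) and Slfn4 (4.67, a size set by the floor on wild-type polysomes). The 5 with a more negative one were Irf1 (-0.59), Irf3 (-0.62), Ifitm3 (-0.77), Tap2 (-0.91) and Ifi35 (-0.44). Of these 5, 2 passed with no filter, 2 with equal array medians, 1 with quantile normalization and 0 with the set letter as a replicate block, and the 6 positive calls became 2 with no filter.

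Gbp3, a guanylate-binding GTPase of cell-autonomous defence, read 11.48, 10.66 and 11.63 in wild-type and 10.39, 10.51 and 10.67 in knockout total RNA, then 10.25 and 9.33 on wild-type and 10.82, 10.96 and 10.49 on knockout polysomes. Neither difference passed by itself, at -0.74 (SE 0.28, limma adjusted p = 0.091) and 0.97 (SE 0.32, adjusted p = 0.070), and their contrast of 1.71 did (SE 0.43, adjusted p = 0.023). Irf3, the latent factor that switches on interferon beta, read 5.85, 6.09 and 5.88 in wild-type and 6.32, 6.37 and 6.02 in knockout total RNA, then 9.09 and 9.24 on wild-type and 8.96, 8.91 and 8.64 on knockout polysomes. Its groups overlapped in total RNA and not on polysomes. Tap2, a subunit of the transporter that carries peptides to class I molecules, read 7.30, 7.21 and 7.31 in wild-type and 7.77, 8.23 and 7.47 in knockout total RNA, then 10.66 and 10.67 on wild-type and 9.98, 10.45 and 10.49 on knockout polysomes. Its knockout arrays were higher in total RNA and lower on polysomes, without overlap in either. Ifit2 kept its interaction call without any 1 array, Ifi209 and Slfn4 lost it without wild-type polysomal replicate 2 (limma adjusted p = 0.074 and 0.064), and Gbp3 lost it without that array, knockout polysomal replicate 2 or wild-type total replicate 1 (up to 0.082). The other 7 calls were each lost without at least 7 of the 11 arrays, with adjusted p up to 0.18, and none of the 5 negative calls was left without wild-type polysomal replicate 1 or 2 or knockout polysomal replicate 2 or 3, or without knockout total replicate 2.

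**Figure D4:**
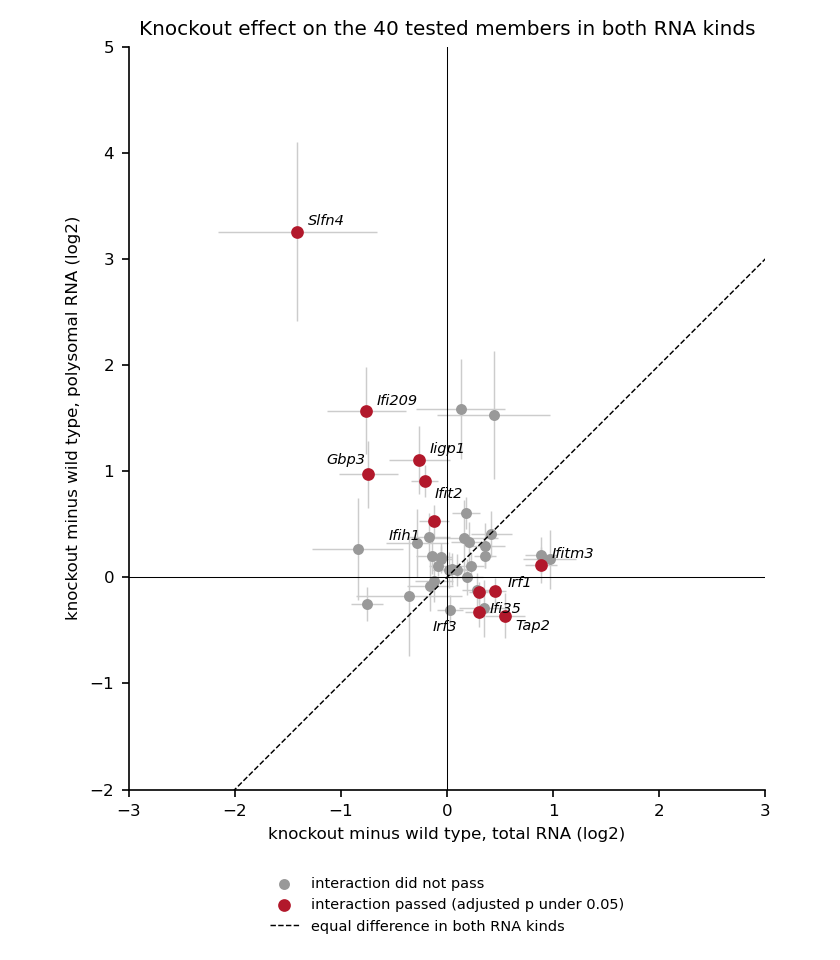
Knockout minus wild type in total RNA (horizontal, log2) against the same in polysomal RNA (vertical, log2) for the 40 tested members, with standard errors as grey lines. Red points passed the interaction test, 6 above and 5 below the dashed line of equal difference, and Slfn4 lies farthest from it.

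Polysomal against total RNA within each genotype gave the position of each message. Equal amounts of RNA, 100 ng per array, were labelled and the arrays normalized, so a position is relative to other messages. In wild-type lung 19 members were higher on polysomes and 14 lower, against 44.5% and 27.9% of all genes (72.4% in either direction). In knockout lung 17 were higher and 7 lower, against 39.5% and 25.7% (65.2%). Tap2 and Irf3 were higher on polysomes in wild type by 3.39 (SE 0.21) and 3.22 (SE 0.14), and in knockout by 2.48 and 2.60. Tap1, the other transporter subunit, read 5.50, 3.42 and 4.84 in wild-type total RNA and 8.23 and 7.56 on wild-type polysomes. Bst2 (tetherin), which holds budding virus at the cell surface, was near the floor in total RNA, between 2.18 and 3.25, and between 5.20 and 5.96 on polysomes. Both Tap1 and Bst2 passed the filter through the polysomal arrays alone, so that they were higher there was in part fixed by the filter. At the other end, Slfn4 differed by -8.30 in wild type (SE 0.84) and -3.63 in knockout (SE 0.75), the former against the floor. The differences of Slfn8 were -2.44 in wild type and -1.34 in knockout, those of Iigp1 -1.96 and -0.59, and those of Ifi209 -1.95 and 0.37. Ifit2 was at -1.93 and -0.82, and Irf2 at -1.88 and -1.37. The knockout values of Iigp1 and Ifi209 did not pass the limma test (adjusted p = 0.10 and 0.40).

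Over all 8085 genes the knockout positions followed the wild-type positions with a fitted slope of 0.684. Along that line a message low on wild-type polysomes has a positive interaction and one high on them a negative interaction. The same wild-type arrays enter both the position and the interaction, so their noise also adds to this pattern, by an amount not tested. For Ifit2 the line gives 0.60 and the measured interaction was 1.11, for Ifi209 0.61 against 2.33, and for Gbp3 0.46 against 1.71. Slfn4 is left out, since its wild-type polysomal values were at the floor. For the negative members the line gives -0.52 for Irf1, -1.03 for Irf3, -0.70 for Ifitm3, -1.08 for Tap2 and -0.33 for Ifi35, and the measured values were -0.59, -0.62, -0.77, -0.91 and -0.44. The distance of a member from the line was not tested.

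**Figure D5:**
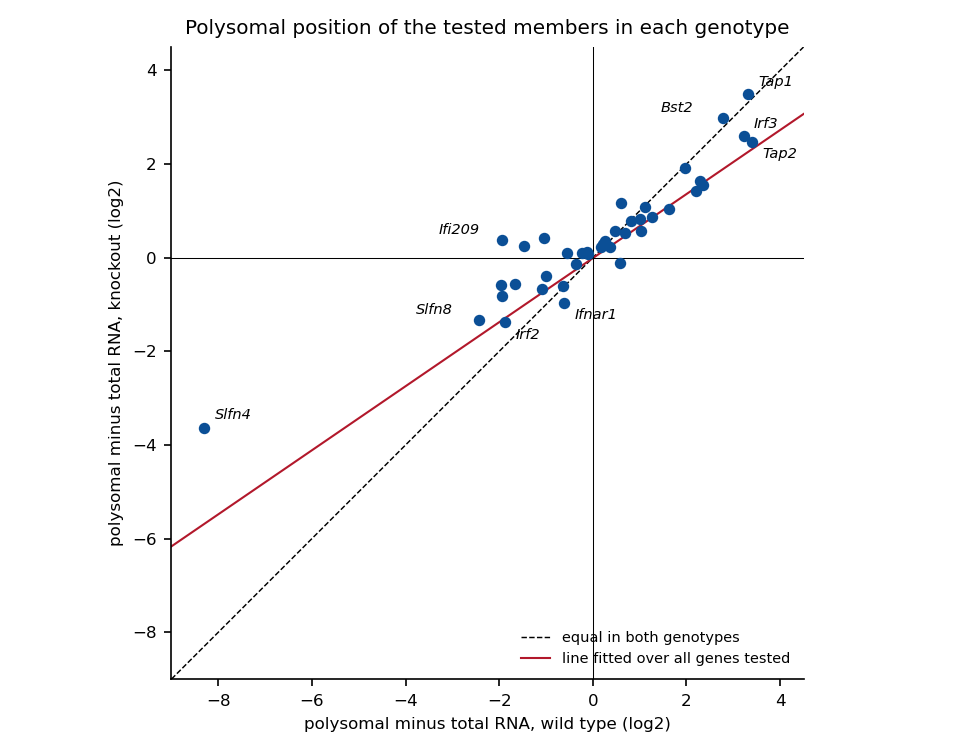
Polysomal minus total RNA (log2) for each tested member in wild type (horizontal) and knockout (vertical), with the line of equal position dashed and the line over all genes in red (slope 0.684). Tap2 and Irf3 lie at the polysomal end, with Tap1 and Bst2, which passed the filter on polysomal arrays alone, and Slfn4 lies at the other, where its wild-type position is set by the floor.

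The rest of the interferon pathway was read from companion lists of 114 genes, of which 87 had a probe set and 62 were tested. In total RNA 19 of the 62 rose and 5 fell, on polysomes 9 rose and 3 fell, and in the interaction 6 were higher and 17 lower. These are 30.6% and 8.06%, 14.5% and 4.84%, and 9.68% and 27.4% of the 62. Of all genes, 17.2% and 5.97%, 8.36% and 6.77%, and 8.06% and 14.2% did so. The genes of class I presentation and the immunoproteasome moved most in total RNA: 8 of 13 tested rose (61.5%, against 17.2% of all genes) and none fell, at a median difference of 0.68 against 0.09 over all genes. Psmb10, a catalytic immunoproteasome subunit, was between 8.78 and 8.89 in wild-type and 9.89 and 10.06 in knockout total RNA, and rose by 1.14 (SE 0.08, limma adjusted p = 0.0001). The proteasome activator Psme1 rose by 0.75, and its partner Psme2 from between 9.22 and 9.66 to between 10.19 and 10.78. On polysomes none of the 13 tested passed the limma test, nor did any have an unadjusted p under 0.05, and the interaction was lower for 7. The list stood high on polysomes in both genotypes, at a median of 3.02 in wild type and 2.05 in knockout, against 0.22 and 0.13 over all genes.

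Signalling genes did not move as one. Of 13 tested receptor, JAK-STAT and feedback genes, Stat3 rose in total RNA by 0.95 (SE 0.12, limma adjusted p = 0.0012) and the phosphatase Ptpn2 fell by 0.48 (SE 0.10, limma adjusted p = 0.0076). Each was 7.69% of the list, against 17.2% of all genes that rose and 5.97% that fell. On polysomes Ptpn2, the kinase Jak2 and the SUMO ligase Pias1 rose by 0.43, 1.48 and 0.48, Jak2 from between 2.53 and 2.87 to between 3.91 and 4.40, near the floor. These risers were 23.1% of the list, against 8.36% of all genes, and no gene of the list fell. Of 8 tested genes of nucleic acid sensing, Irak1 rose and Nlrc5 and Tbk1 fell in total RNA (12.5% and 25%, against 17.2% and 5.97% of all genes). On polysomes Traf3 and the RNA receptor Tlr3 rose by 0.58 and 0.47 while the adaptor Myd88 fell by 0.34 (25% and 12.5%, against 8.36% and 6.77%). The calls of Irak1, Tbk1 and Pias1 were each lost without at least 8 of the 11 arrays. Of 28 further interferon-induced genes, 9 rose and 2 fell in total RNA (32.1% and 7.14%, against 17.2% and 5.97% of all genes), among the risers Ly6e (1.17), Oas1c (1.17) and Ifi27 (0.77). On polysomes 4 rose and 2 fell (14.3% and 7.14%, against 8.36% and 6.77%). Ube2l6, the conjugating enzyme for Isg15, rose in both RNA kinds, by 1.44 (SE 0.27, limma adjusted p = 0.0059) and 1.43 (SE 0.30, limma adjusted p = 0.013). It was between 3.61 and 4.09 in wild-type total RNA and between 5.01 and 5.39 in knockout. Uba7, the activating enzyme of the same system, fell by 0.43 on polysomes (limma adjusted p = 0.021).

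Markers of lung cell types also differed between genotypes. In total RNA 7 of 10 tested endothelial markers rose and none fell, and 4 of 8 markers of interstitial macrophages and monocytes rose (70% and 50%, against 17.2% of all genes). Among the latter, C1qa was between 3.49 and 3.93 in wild type, near the floor, and 7.29 and 8.20 in knockout. The C1qb call was lost without any 1 of 9 arrays and the C1qc call without any 1 of 7. On polysomes 1 marker of each list rose and 1 fell (10% and 12.5% each way, against 8.36% and 6.77% of all genes). The interaction was lower for 70% of the endothelial and 50% of the macrophage markers, against 14.2% of all genes. Of 6 tested alveolar type 2 markers, 3 rose and none fell in total RNA (50%, against 17.2% of all genes). None of the 6 passed the limma test on polysomes. Of 3 tested club and ciliated markers, none passed in total RNA and 2 fell on polysomes (66.7%, against 6.77% of all genes). Of 9 alveolar macrophage markers, 2 rose and 5 fell in total RNA (22.2% and 55.6%, against 17.2% and 5.97% of all genes), and 3 fell on polysomes (33.3%, against 6.77%). None of the 4 T and natural killer markers or the 3 plasmacytoid dendritic markers tested passed the limma test in either RNA kind. At an unadjusted p under 0.05 limma gave 1 in all, a T and natural killer marker higher on polysomes. Siglech, Ccr9 and Klk1 of the plasmacytoid list and Cd4, Ncr1 and Klrb1c of the other stayed under log2 4 on all arrays. These gave no usable measure. The plasmacytoid markers tested included Bst2, itself a member and near the floor in total RNA. The summed level of the endothelial list was 14.03 to 14.15 in wild-type and 14.70 to 14.84 in knockout total RNA, and 16.14 to 16.27 on polysomes of both genotypes. That of the interstitial macrophage list was 14.65 to 15.31, 15.73 to 15.92, 16.61 to 16.67 and 16.37 to 16.57 in wild-type total, knockout total, wild-type polysomal and knockout polysomal RNA. Most of that sum was Lyz2, at 14.43 to 15.17, 15.61 to 15.82, 16.45 to 16.50 and 16.23 to 16.43 in the same order. Lyz2 was among the 4 risers, while Csf1r and Ccr2 did not pass in total RNA (limma adjusted p = 0.87 and 0.75). The alveolar macrophage list read 14.67 to 14.88, 14.12 to 14.37, 15.78 to 15.80 and 15.18 to 15.31 in the same order. The part of these cell types in the changes of Irf8, Ifitm3, Slfn2 and the other members was not tested.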

How the data were processed

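The deposited values are log2 GCRMA values made by the authors, per the submitters' processing notes. The values themselves show the log2 scale. The version of GCRMA and the grouping of probes by RefSeq transcript are not given in the sources used here. In RefSeq GRCm38.p6, 15228 of the 26180 probe sets could be given 1 gene each, and 10952 could not be named. Precision is limited by how many arrays there are.

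Probe sets with log2 of at least 5 on at least 2 arrays were tested, 13802 in all, and each gene was read from its highest-mean probe set. Group means were fitted across all 11 arrays with lmFit and eBayes of limma 3.58.1 (R 4.3.3), with 7 residual degrees of freedom. Tests were two-sided, with Benjamini-Hochberg adjustment over all probe sets tested and a threshold of 0.05. Adjusted p-values come from this fit, or from its repeats where an array is left out. The fit was also run on simulated arrays with independent noise, without the repeated rows and possible dependence between arrays of these data. That run does not tell whether the p-values hold here.

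The members and lists were chosen with earlier results of these data known. Values on every array are given for members that passed in either genotype comparison or the interaction, and for Irf7, Isg15, Stat2, Ifnar1 and Slfn4. Rsad2, Slfn8, Tap1, Bst2, Cmpk2 and Oasl2 are outside that rule and were chosen after their values were seen. From the companion and marker lists, up to 3 members a comparison were named by smallest p. Alternatives were other filters, a variance trend, other normalizations, a block for the set letter, dropping repeated probe sets, fits of the compared groups alone, a threshold of 0.01 and leaving out each array. Python 3.11.15 with matplotlib 3.10.9 drew the figures.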

Additional observations from a re-analysis of the deposited data

Results flagged for a closer look

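For 11 members the knockout effect differed between polysomal and total RNA by the interaction test, in log2 units. It was more positive on polysomes for Ifih1 (0.65), Ifit2 (1.11), Gbp3 (1.71), Iigp1 (1.37), Ifi209 (2.33) and Slfn4 (4.67, a size that depends on the floor, where its wild-type polysomal values lay). It was more negative on polysomes for Irf1 (-0.59), Irf3 (-0.62), Ifitm3 (-0.77), Tap2 (-0.91) and Ifi35 (-0.44). These were 15% and 12.5% of the 40 tested members, against 8.06% and 14.2% of all genes. No negative call was kept with the set letter as a replicate block. The groups of 2 or 3 arrays are too small for a test of single arrays that lie far from their group.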

How the results depend on the processing

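No called member changed direction under any alternative. Other filters, the variance trend, dropped repeats, the compared groups alone and the stricter threshold leave group means unchanged, so direction could not change there. Of the calls of named members repeated under each alternative, 356 kept and 183 lost the threshold. The 356 include 25 kept under another choice of probe set, an outcome fixed in advance. Counts of members moved as follows. In total RNA, 6 members higher became 3 with the replicate block for the set letter, 3 with the compared groups alone and 2 at a threshold of 0.01, and the 1 lower became 4 with no filter. On polysomes, 7 higher became 2 with no filter, 4 with equal array medians, 2 with the compared groups alone and 1 at 0.01. The count of lower members was 0 in all. For the interaction, 6 higher became 2 with no filter and 1 at 0.01, and 5 lower became 2 with no filter, 1 with quantile normalization, 2 with equal array medians, 0 with the replicate block and 0 at 0.01. For polysomal minus total RNA, the replicate block gave 9 lower in wild type (from 14) and 4 lower in knockout (from 7). Leaving out 1 array at a time gave 2 to 7 higher and 1 to 4 lower in total RNA, 1 to 7 higher and 0 lower on polysomes, and 1 to 6 higher and 0 to 4 lower for the interaction. For polysomal minus total RNA it gave 16 to 19 higher and 11 to 15 lower in wild type, and 16 to 18 higher and 6 to 7 lower in knockout. With no filter more probe sets were tested, and leaving out an array leaves fewer samples. The cause of the other moves was not tested. Arrays with the same letter had correlated deviations between -0.05 and 0.042 in total RNA and of 0.117 and 0.103 in polysomal RNA. Arrays with different letters had them between -0.046 and 0.051, and between -0.117 and 0.003. The deviations of the 2 wild-type polysomal arrays mirror each other, so those values come in opposite pairs and cannot decide whether the letters mark pairs. The letters were not used as pairs in the main fit, and as a block they left 15 of 25 calls. Equal array medians moved the median of all genes from 0.09 to -0.01 in total RNA, and quantile normalization moved that of polysomal minus total RNA in wild type from 0.22 to 0.06. Each member had 1 probe set, so the choice of another could change nothing. Few arrays and values near the floor limit these results.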
